A study of Mus musculus with 4 samples.

Results

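The methionine cycle and the one-carbon enzymes around it were followed in adult mouse liver through 10 genes, *Mat1a*, *Ahcy*, *Gnmt*, *Bhmt*, *Bhmt2*, *Cbs*, *Cth*, *Pemt*, *Mthfd1* and *Shmt1*. They were read from every probe, other than control spots, whose accession belonged to 1 of these genes, which gave 17 probes of 55681. All 17 were among the 27513 probes that were tested, and all were well above background on the 4 arrays in both genotypes. A probe is a short DNA strand on the array that captures the RNA of 1 gene, and 5 of the 10 genes had more than 1.

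Liver RNA of *Rap1*-deficient mice was set against liver RNA of wild-type mice on Agilent 2-colour arrays, where each array carries both genotypes in different dyes, Cy3 and Cy5. The labels give 3 biological replicates per genotype, a C57BL6/129SV background of 90% to 10% and an age of 30 weeks in both groups, and no sex, while the paper's text describes females a few weeks older. The *Rap1*-/- mice lack the gene in the whole body. They descend from mice with a floxed *Rap1* allele and a *cre* transgene under the *EIIa* promoter, which was bred out of the colony, and the controls are labelled as wild-type only. In replicates 1, 2 and 3, Cy5 labelled the *Rap1*-deficient liver. A further array, the dye swap, numbered 1 in the labels, has the dyes exchanged, with Cy3 on the *Rap1*-deficient liver. RAP1 is a subunit of shelterin, the complex on telomeres, that also binds elsewhere in the genome, and the study asked how its loss changes liver gene expression in mice that become obese.

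In hepatocytes, MAT1A joins methionine and ATP to S-adenosylmethionine, the methyl donor of the cell. Methyltransferases such as GNMT and PEMT use it up and leave S-adenosylhomocysteine, which AHCY splits to homocysteine. Homocysteine is methylated again, by BHMT with a methyl group from betaine or by methionine synthase with one from folate, or it is drained to cysteine by CBS and CTH, and the liver is the organ in which most of this traffic takes place.

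Before the members, the arrays themselves were compared. In each dye of each array, 50.1% to 56.4% of spots stood well above background, and none was saturated. The log2 ratios of *Rap1*-deficient over wild-type liver had a standard deviation of 0.48 to 0.51 over the tested probes in replicates 1, 2 and 3, and of 0.24 in the dye swap, whose sign had been turned. Across probes, which are not independent replicates, replicates 1, 2 and 3 correlated at 0.64 to 0.85 with each other and at -0.24 to -0.29 with the dye swap. The dye swap thus stood apart, and each member probe is given with its ratio on that array and with a fit that includes a term for the dye. That fit takes the 4 arrays as independent, although the dye swap and replicate 1 share a number in the labels. In its estimates the dye swap alone weighs as much as replicates 1, 2 and 3 together, so its standard errors and adjusted p are to be read with that limit. The targeted gene, *Terf2ip*, which encodes RAP1, had 2 probes. At A_52_P381806 the wild-type channel was well above background on 4 of 4 arrays and the *Rap1*-deficient channel on 0 of 4, with log2 ratios of -1.74, -1.92 and -1.91 in replicates 1, 2 and 3 and -1.68 in the dye swap. At A_55_P2094079 the ratios were 1.17, 1.07, 0.88 and 0.72 in the same order, and no source used here places either probe relative to the deleted part. In the liver marker lists, 5 of 5 hepatocyte genes were tested, and *Alb*, the albumin gene, had log2 ratios of 1.07, 0.71 and 0.64 in replicates 1, 2 and 3 and -0.53 in the dye swap. The median ratio of the hepatocyte list was 0.55, 0.57, 0.33 and -0.51 in that order. Of the macrophage markers, 5 of 6 were tested, and their median ratio was -0.86, -0.0007, 1.14 and -0.31, highest in replicate 3. Of these, 1 was lower, *Vsig4* (-0.28, adjusted p = 0.118, limma, with 0.13 in the dye swap), 0 were higher and 4 did not pass. Of all named genes, 18.0% were called higher and 16.1% lower. Of the endothelial markers 2 of 5 were higher, *Kdr* and *Pecam1*, and *Kdr*, with a ratio of -0.35 in the dye swap, also passed with the dye fitted (0.62, adjusted p = 0.0570, limma). Of the bile duct markers 3 of 5 were tested and 1 was higher, *Krt19*, which lay above 0 on all 4 arrays and passed in both fits (0.38, adjusted p = 0.0520, and 0.35, adjusted p = 0.125, with the dye fitted). The part of these cells in the results was not tested. In bulk liver RNA, fewer cells of a type and less RNA per cell cannot be told apart.

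Of the 10 genes, 4 were higher in *Rap1*-deficient liver and 6 did not pass the test. Over 3 pairs of livers, *Ahcy*, which removes the product of methylation by S-adenosylmethionine, had the largest rise, and *Bhmt*, *Shmt1* and *Mat1a* rose less. Both *Ahcy* probes lay below 0 in the dye swap, at -0.80 and -0.89. With the dye fitted they had log2 fold changes of 0.94 and 0.79, beside 0.65 to 0.89 at the *Bhmt* probes. *Gnmt*, *Cbs*, *Cth*, *Bhmt2*, *Pemt* and *Mthfd1* had log2 fold changes between -0.36 and 0.05 by their brightest probes and did not pass. Differences were tested with limma over 3 pairs of livers, where the dye swap was averaged with replicate 1, a match that rests on its number in the labels. Only the first pair holds both dye orientations. In the other pairs *Rap1*-deficient liver was in Cy5 alone, so fold changes over 3 pairs keep part of any dye effect. Calls were made at an adjusted p under 0.15. At this threshold 34.5% of all tested probes were called, so a call by itself is common in these data. Among the member probes, 8 of 17 (47.1%) were called and all 8 were higher, where 20.8% of all tested probes were called higher. With each gene represented by its brightest probe, 4 of 10 members (40.0%) were higher, against 18.0% of 13167 named genes called higher and 34.1% called in either direction. No member was lower, at the threshold or at an unadjusted p under 0.05 (0 of 17 probes in each case). Of all tested probes 13.7% were called lower, and of the named genes 16.1%. The share of all probes that were lower at an unadjusted p under 0.05 was not counted. The median log2 fold change of the 10 genes was 0.04, beside 0.005 for all named genes, and it was -0.011 in the authors' value table.

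**Figure D1:**
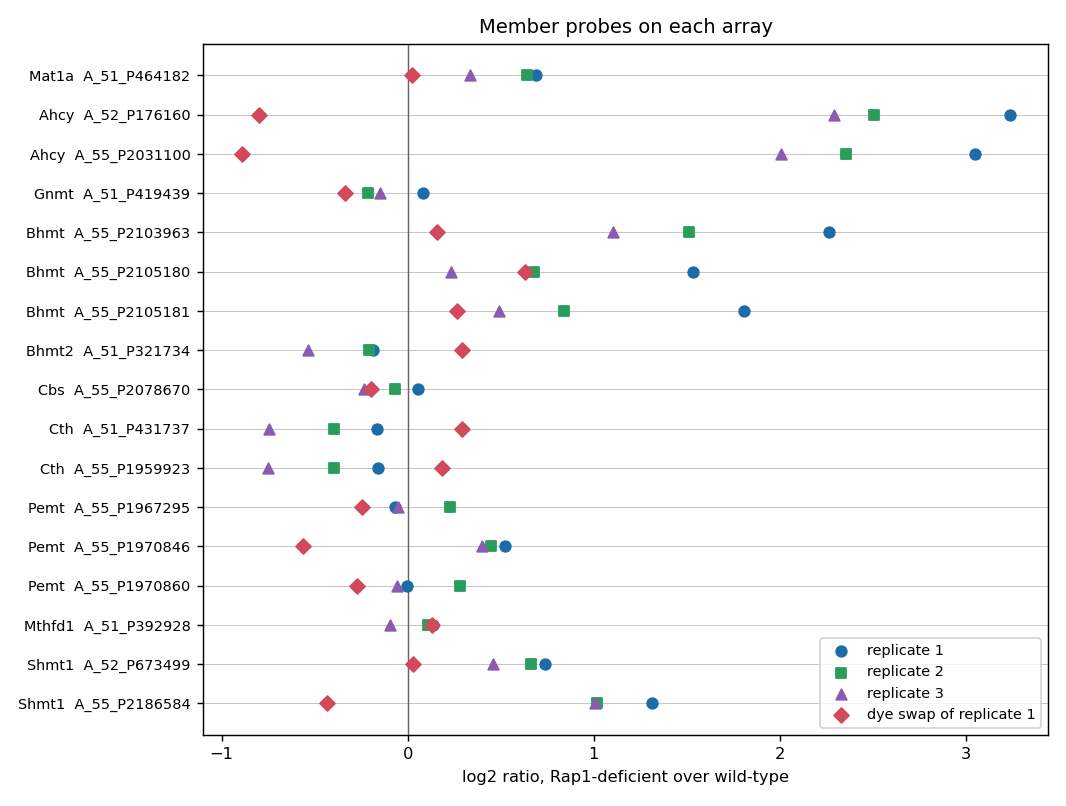
Log2 ratio of *Rap1*-deficient over wild-type liver (x axis) for each of the 17 member probes (rows) in replicates 1, 2 and 3 and in the dye swap, with the sign of the swap turned. Both *Ahcy* probes sit between 2.00 and 3.24 in replicates 1, 2 and 3 and at -0.80 and -0.89 in the dye swap, while the 3 *Bhmt* probes sit above 0 on every array.

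*Ahcy* encodes adenosylhomocysteinase, the enzyme that hydrolyses S-adenosylhomocysteine, itself an inhibitor of methyltransferases. At its brighter probe, A_52_P176160, the log2 ratios were 3.24, 2.51 and 2.29 in replicates 1, 2 and 3 and -0.80 in the dye swap. The other probe, A_55_P2031100, gave 3.05, 2.36, 2.00 and -0.89, so both probes were far above 0 on 3 arrays and below 0 on the fourth. Over 3 pairs the log2 fold change was 2.01 (SE 0.25, n = 3 pairs, adjusted p = 0.0402), or 4.02-fold, at the first probe. At the second it was 1.81 (SE 0.24, adjusted p = 0.0402). The first pair, the only one with both dye orientations, had 1.22 and 1.08 at these probes. By the size of its change the first probe ranked 59 of 27513. With the dye fitted, the estimate fell to 0.94 (SE 0.19, adjusted p = 0.0972), or 1.92-fold, at the first probe, which still passed, and to 0.79 (SE 0.20, adjusted p = 0.141) at the second, which also passed. Without replicate 2 the first probe had 1.76 (adjusted p = 0.267) and no longer passed.

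The channels of this gene were also read dye by dye. In log2 intensity after loess and quantile normalization, the Cy5 channel of A_52_P176160 read 11.97, 11.20 and 11.06 for the *Rap1*-deficient livers of replicates 1, 2 and 3, and 11.05 for the wild-type liver of the dye swap. The Cy3 channel read 8.73, 8.69 and 8.77 for the 3 wild-type livers and 10.25 for the *Rap1*-deficient liver of the dye swap. Cy5 was thus the brighter channel whichever genotype it carried. Within each dye the *Rap1*-deficient values lay above the wild-type values, in Cy5 by as little as the distance from 11.05 to 11.06. The dye swap gives the only value of 1 genotype in each dye, and the share of all probes that separate in this way was not counted. The fitted dye effect, the log2 ratio of Cy5 over Cy3 at no difference of genotype, was 1.74 (adjusted p = 0.00856, limma). Of the hepatocyte markers, *Alb*, *Ttr* and *Apoa1* had ratios of the same sign as *Ahcy* on each of the 4 arrays and *Tat* and *Cyp2e1* did not, and their part in its change was not tested.

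**Figure D2:**
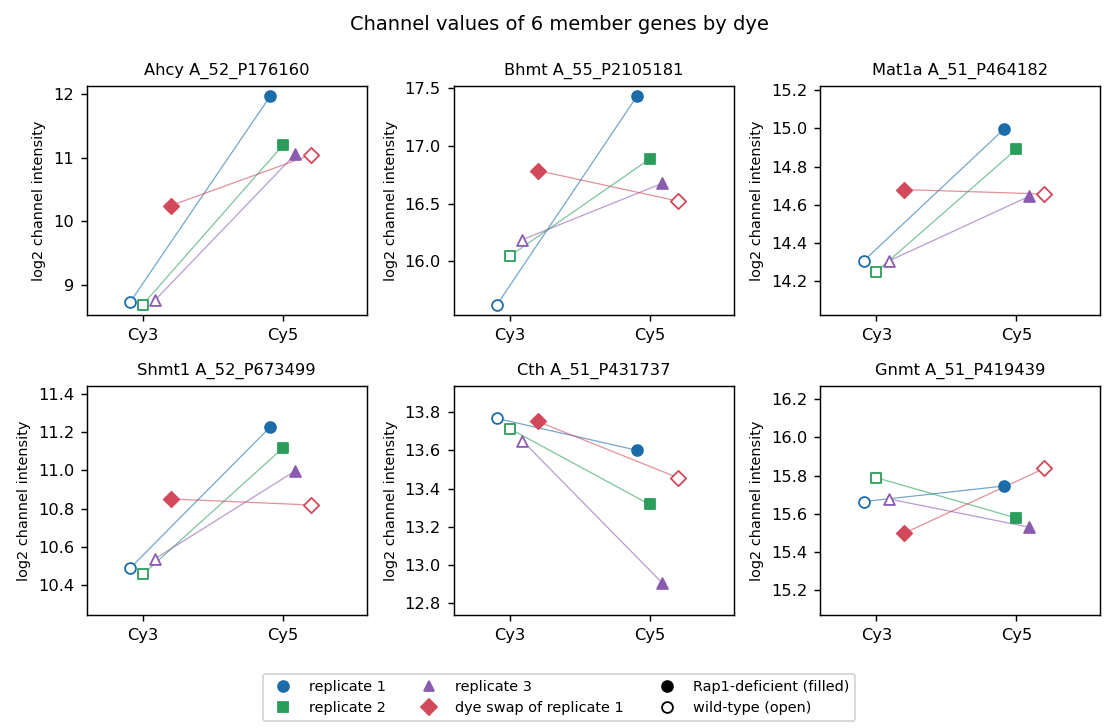
Log2 channel intensity (y axis, scaled for each gene) in Cy3 and Cy5 (x axis) of 1 probe each of *Ahcy*, *Bhmt*, *Mat1a*, *Shmt1*, *Cth* and *Gnmt*, with filled symbols for *Rap1*-deficient and open symbols for wild-type liver and a line joining the channels of an array. For *Ahcy* the wild-type value was 11.05 in Cy5 and between 8.69 and 8.77 in Cy3, a larger step than that between the genotypes within a dye.

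The 250 bases before the start of *Ahcy* are shown because this gene had the largest change of the 10. They come from RefSeq on the mouse assembly GRCm38.p6, chr2:155074498-155074747, minus strand, and are written 5′ to 3′ along the gene. Capitals mark, from the left, a CCAAT motif and the hormone receptor motif AGGTCA, both on the opposite strand, then the GC box GGGCGG overlapping the telomere repeat TTAGGG, again both on the opposite strand.
Ahcy: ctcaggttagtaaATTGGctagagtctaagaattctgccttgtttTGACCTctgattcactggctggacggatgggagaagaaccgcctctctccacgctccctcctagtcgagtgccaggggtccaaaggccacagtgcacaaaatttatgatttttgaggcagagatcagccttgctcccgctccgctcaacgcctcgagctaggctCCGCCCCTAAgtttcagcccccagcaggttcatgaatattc

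The left ends of these matches lie 237, 205, 41 and 37 bases before the start. The letters TTAGGG, in which RAP1's partner TRF2 binds telomeric DNA as a repeated array, occur in 9.32% of 32851 promoters of this length, on either strand. A single copy in this window is therefore not rare, and a match of letters is not a binding site.

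*Bhmt* encodes betaine-homocysteine methyltransferase, which regenerates methionine from homocysteine in liver. Of the 5 genes with several probes, *Bhmt* alone had all of its probes above 0 on every array. A_55_P2103963 had log2 ratios of 2.27, 1.51 and 1.10 in replicates 1, 2 and 3 and 0.16 in the dye swap. A_55_P2105181, the brightest, had 1.81, 0.84, 0.49 and 0.26, and A_55_P2105180 had 1.54, 0.68, 0.23 and 0.63. Replicate 1 was the highest of the 3 replicates at each of these probes and replicate 3 the lowest. The fold changes over 3 pairs were 1.28 (SE 0.11, adjusted p = 0.0329), 0.79 (SE 0.13, adjusted p = 0.0402) and 0.66 (SE 0.17, adjusted p = 0.0639) on the log2 scale, in the same order of probes. In linear terms *Bhmt* was 1.73-fold higher by its brightest probe and 2.42-fold higher by A_55_P2103963, so its probes differed in size but not in direction.

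In the channels of A_55_P2105181, Cy5 read 17.43, 16.89 and 16.68 for the *Rap1*-deficient livers and 16.52 for the wild-type liver, and Cy3 read 15.62, 16.05 and 16.19 for the wild-type livers and 16.79 for the *Rap1*-deficient liver, in log2 intensity. The genotypes did not overlap within either dye. In each dye 1 genotype has a single value, from the dye swap, and the share of all probes without overlap was not counted. With the dye fitted, the estimates were 0.89 (SE 0.22, adjusted p = 0.134) at A_55_P2103963, which passed, and 0.65 (SE 0.25, adjusted p = 0.262) and 0.72 (SE 0.24, adjusted p = 0.220) at the others, which did not. Without replicate 2 the adjusted p was 0.267 to 0.338 at the 3 probes. A_55_P2105180 also missed the threshold with the processed signals (0.49, adjusted p = 0.206) and in the authors' value table (0.41, adjusted p = 0.265).

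*Bhmt2*, which makes methionine from S-methylmethionine, lies next to *Bhmt* on chromosome 13 and did not pass. The difference between the neighbours was not tested. Its single probe had log2 ratios of -0.19, -0.21 and -0.54 in replicates 1, 2 and 3 and 0.29 in the dye swap. The fold change was -0.23 on the log2 scale (SE 0.13, adjusted p = 0.267) over 3 pairs and -0.01 (SE 0.10, adjusted p = 0.972) with the dye fitted. It passed as lower without the dye swap (-0.31, adjusted p = 0.0607) and without replicate 1 (-0.37, adjusted p = 0.0856), both of which leave only livers with *Rap1* deficiency in Cy5.

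The promoters of these neighbouring genes are set side by side because the genes are related in sequence and function and 1 of them passed the test. Both are 250 bases before the RefSeq start on GRCm38.p6, 5′ to 3′ along the gene, *Bhmt* at chr13:93637759-93638008 and *Bhmt2* at chr13:93674303-93674552, both on the minus strand. In *Bhmt* the capitals mark AGGTCA in 3 places and a CCAAT motif on the opposite strand, and in *Bhmt2* they mark GGGCGG in 2 places.
Bhmt: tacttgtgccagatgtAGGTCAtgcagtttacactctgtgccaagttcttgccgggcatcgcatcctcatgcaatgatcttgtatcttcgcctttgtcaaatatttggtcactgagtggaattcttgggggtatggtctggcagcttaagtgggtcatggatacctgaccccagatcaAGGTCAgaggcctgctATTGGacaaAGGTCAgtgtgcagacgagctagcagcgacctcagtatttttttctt
Bhmt2: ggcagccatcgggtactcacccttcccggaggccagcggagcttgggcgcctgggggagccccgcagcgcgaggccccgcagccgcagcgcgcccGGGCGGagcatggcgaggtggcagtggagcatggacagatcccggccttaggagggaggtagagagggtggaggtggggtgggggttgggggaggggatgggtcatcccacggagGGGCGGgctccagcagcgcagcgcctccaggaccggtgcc

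The window of *Bhmt* was 48.0% G and C and that of *Bhmt2* 74.0%, against 52.8% for *Ahcy*. The motif AGGTCA, which nuclear hormone receptors read, began 234, 72 and 47 bases before the start of *Bhmt*. It was found in neither orientation in the window of *Bhmt2*, which held GC boxes beginning at 155 and 40 bases. Promoter entries were found for 8 of the 10 genes (9 promoters, since *Pemt* has 2), all but *Mat1a* and *Cth*. AGGTCA occurred on either strand in 4 of these 9, *Ahcy*, *Bhmt*, *Gnmt* and *Mthfd1*, where 14.0% of all promoters hold it. Of these genes, *Ahcy* and *Bhmt* were called and *Gnmt* and *Mthfd1* were not. CCAAT occurred in 7 of 9 (33.8% of all promoters), GGGCGG in 5 (32.7%), CACGTG in 1, that of *Cbs* (6.02%), and TATAAA in 0 (12.4%). These counts cover both strands of 250 bases only.

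*Mat1a* encodes the liver form of methionine adenosyltransferase, which opens the cycle. The log2 ratios of its probe were 0.69, 0.64 and 0.34 in replicates 1, 2 and 3 and 0.02 in the dye swap, all above 0, though barely so on the last. The fold change was 0.44 on the log2 scale (SE 0.10, n = 3 pairs, adjusted p = 0.0525), 1.36-fold. With the dye fitted it was 0.29 (SE 0.10, adjusted p = 0.225), and without replicate 2 it was 0.35 (adjusted p = 0.341), and neither passed. In Cy5 the *Rap1*-deficient livers read 15.00, 14.89 and 14.64 and the wild-type liver 14.66 in log2 intensity, so the genotypes overlapped, while in Cy3 the *Rap1*-deficient liver read 14.68 and the wild-type livers 14.25 to 14.31.

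*Gnmt*, the glycine methyltransferase that disposes of surplus S-adenosylmethionine, did not pass. Its ratios were 0.08, -0.21 and -0.15 in replicates 1, 2 and 3 and -0.34 in the dye swap, and its log2 fold change was -0.16 (SE 0.08, adjusted p = 0.221). Within Cy5 the *Rap1*-deficient livers read 15.53 to 15.75 in log2 intensity and the wild-type liver 15.84, and within Cy3 the wild-type livers read 15.66 to 15.79 and the *Rap1*-deficient liver 15.50. The values thus lay lower in *Rap1*-deficient liver in both dyes, where the dye swap again gives the only value of a genotype in each dye. The share of all probes that separate in this way was not counted. The fit with the dye term gave -0.22 (SE 0.09, adjusted p = 0.294). In the authors' value table the same test gave -0.29 (adjusted p = 0.0969), which passed as lower.

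*Pemt*, which uses S-adenosylmethionine to turn phosphatidylethanolamine into phosphatidylcholine, had 3 probes that disagreed. A_55_P1970846 had log2 ratios of 0.53, 0.45 and 0.40 in replicates 1, 2 and 3 and -0.56 in the dye swap. The ratios of A_55_P1970860, the brightest, were -0.003, 0.28, -0.06 and -0.27, and those of A_55_P1967295 were -0.07, 0.23, -0.05 and -0.25. None of the 3 passed, with log2 fold changes of 0.28 (SE 0.12, adjusted p = 0.171), 0.03 (SE 0.11, adjusted p = 0.876) and 0.01 (SE 0.11, adjusted p = 0.973). A_55_P1970846 passed without the dye swap (0.46, adjusted p = 0.00887) and without replicate 1, which left out the swap too (0.42, adjusted p = 0.0366). It read -0.05 (adjusted p = 0.760) with the dye fitted. The other probes then read -0.10 (adjusted p = 0.631) and -0.11 (adjusted p = 0.604).

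*Cbs* and *Cth* encode the enzymes that lead homocysteine to cysteine by way of cystathionine. The ratios of *Cbs* were 0.06, -0.07, -0.24 and -0.20, around 0 on all arrays, with a log2 fold change of -0.12 (SE 0.09, adjusted p = 0.357) and of -0.14 (SE 0.09, adjusted p = 0.472) with the dye fitted. The brighter *Cth* probe, A_51_P431737, had -0.17, -0.40 and -0.75 in replicates 1, 2 and 3 and 0.29 in the dye swap. The other, A_55_P1959923, had -0.16, -0.39, -0.75 and 0.19, so that both were below 0 where *Rap1*-deficient liver was in Cy5 and above 0 where it was in Cy3. Their log2 fold changes were -0.36 (SE 0.16, adjusted p = 0.184) and -0.38 (SE 0.16, adjusted p = 0.156), just outside the threshold of 0.15. With the dye fitted they were -0.07 (adjusted p = 0.807) and -0.12 (adjusted p = 0.658). Both passed as lower without the dye swap, with -0.44 (adjusted p = 0.0436) and -0.43 (adjusted p = 0.0465). They also did so without replicate 1, which left out the swap too, with -0.57 (adjusted p = 0.0349) and -0.57 (adjusted p = 0.0355). A_55_P1959923 also passed as lower with all arrays kept, with no background correction (-0.38, adjusted p = 0.149) and in the authors' value table (-0.41, adjusted p = 0.125).

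*Shmt1* and *Mthfd1* supply folate-bound carbon in the cytosol, the first by moving a carbon from serine to tetrahydrofolate and the second by interconverting the folates that carry it. At the brighter *Shmt1* probe, A_52_P673499, the log2 ratios were 0.74, 0.66 and 0.46 in replicates 1, 2 and 3 and 0.03 in the dye swap. A_55_P2186584 had 1.31, 1.02 and 1.01 on the replicates and -0.43 in the dye swap, so its direction turned there. *Shmt1* rose by both probes, with log2 fold changes of 0.50 (SE 0.09, adjusted p = 0.0425), 1.42-fold, and 0.82 (SE 0.14, adjusted p = 0.0402), 1.77-fold. With the dye fitted the probes came close to each other, at 0.33 (SE 0.09, adjusted p = 0.157) and 0.34 (SE 0.09, adjusted p = 0.165), and neither passed. Without replicate 2 the adjusted p was 0.298 and 0.273. In the channels of A_52_P673499 the genotypes did not overlap within a dye, in log2 intensity. Cy5 read 11.00 to 11.23 in *Rap1*-deficient and 10.82 in wild-type liver. Cy3 read 10.85 in *Rap1*-deficient and 10.46 to 10.54 in wild-type liver. The single value of a genotype in each dye is again that of the dye swap, and the share of all probes without overlap was not counted.

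*Mthfd1* had ratios of 0.14, 0.11, -0.09 and 0.13 and a log2 fold change of 0.05 (SE 0.09, adjusted p = 0.721), and of 0.09 (SE 0.08, adjusted p = 0.623) with the dye fitted. Its values stayed near 0 on every array, the dye swap included.

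**Figure D3:**
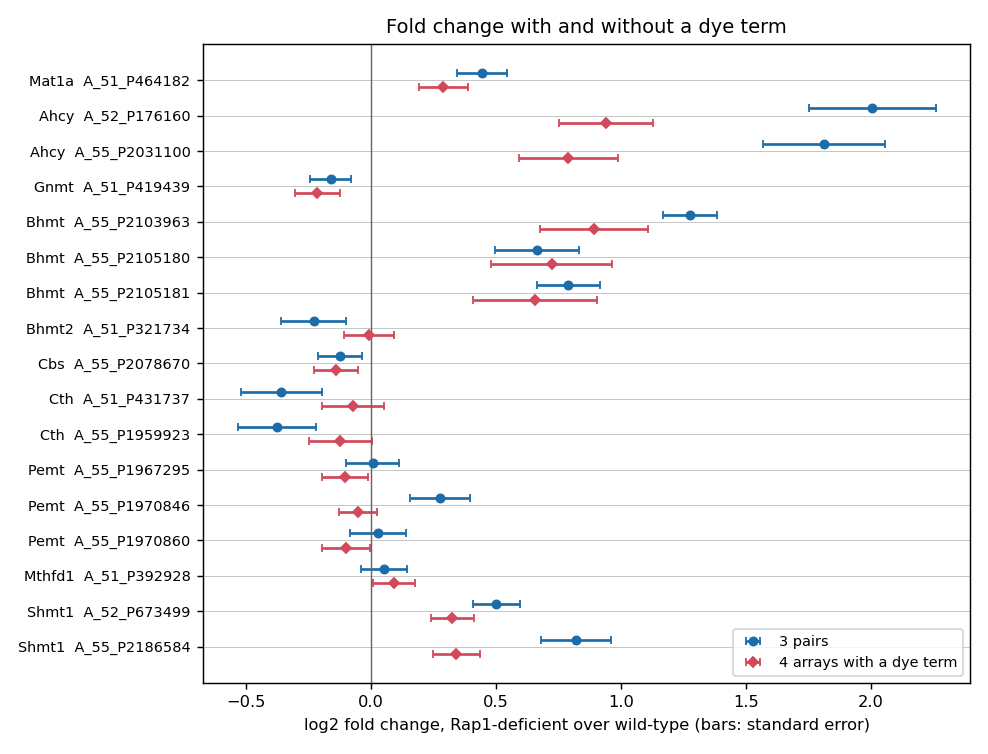
Log2 fold change of *Rap1*-deficient over wild-type liver (x axis) of the 17 member probes from limma over 3 pairs (circles) and from the fit of 4 arrays with a dye term (diamonds), with standard errors as bars. The estimates of the *Ahcy* probes moved from 2.01 and 1.81 to 0.94 and 0.79, while those of *Mat1a*, *Bhmt* and *Shmt1* stayed above 0 with larger errors or smaller values.

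With the dye term, 3 of 17 member probes passed, both *Ahcy* probes and 1 of *Bhmt*, all higher, where 4.61% of all tested probes were called higher. By brightest probe this was 1 gene of 10, *Ahcy*, where 3.71% of the named genes were called higher. The dye coefficient itself was called at 9 of 17 member probes (52.9%), against 27.6% of all tested probes. All 4 arrays lay on 1 side of 0 for 5 of the 8 called member probes (62.5%), those of *Mat1a* and *Bhmt* and 1 of *Shmt1*, where this held for 3317 of the 9488 called probes in all (35.0%). On the dye swap alone, 9 of 17 member probes lay above 0 and 8 below. Without replicate 2, no member probe was called, where 7 of all 27513 tested probes were. At an unadjusted p under 0.05 (limma) there were then 8 member probes and 3904 of all. When the dye swap counted as a 4th array, no member probe was called either, where 83 of all tested probes were. At an unadjusted p under 0.05 there were again 8 member probes, and 5578 of all.

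The 5 named genes whose 4 ratios lay closest to the median ratios of the 10 members (0.11, 0.19, -0.07 and 0.03 in replicates 1, 2 and 3 and the dye swap) were *Fsd1l*, *Btbd10*, *Sytl3*, *Anapc11* and *Nat8l*, at Euclidean distances of 0.0436 to 0.0645 over the 4 arrays. None of these 5 passed the test.

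Around the members, 71 further genes of the same pathways were listed by role, and 65 of them were tested. Of these, 13 were higher, 7 were lower and 45 did not pass, so that 30.8% were called, where 34.1% of all named genes were. The counts by role that follow are to be read beside 18.0% of all named genes called higher and 16.1% called lower. Their median log2 fold change was 0.05. With the dye term 3 of the 65 passed, all higher: *Gldc*, *Cdo1* and *Etnk1*. Without replicate 2, 0 passed (8 had an unadjusted p under 0.05), where 7 of all 27513 tested probes were called.

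In the methionine cycle outside the members, 1 of 5 tested genes was higher. This was *Ahcyl2*, a relative of *Ahcy*, with log2 ratios of 0.13, 0.26 and 0.30 in replicates 1, 2 and 3 and 0.12 in the dye swap and a log2 fold change of 0.23 (SE 0.09, adjusted p = 0.132). *Mat2a*, the form of methionine adenosyltransferase that prevails outside the liver, had a log2 fold change of -0.23 (adjusted p = 0.176), and *Mtr*, methionine synthase, had 0.16 (adjusted p = 0.297), and neither passed. Among the other methyltransferases, 1 of 7 was higher and 1 lower. *As3mt*, which methylates arsenic, had a log2 fold change of -0.43 (SE 0.09, adjusted p = 0.0443) and a ratio of 0.25 in the dye swap. Of the 5 genes listed for choline and betaine oxidation, only *Sardh*, sarcosine dehydrogenase, passed, with 0.24 (SE 0.09, adjusted p = 0.145). *Chdh*, which makes the precursor of betaine from choline, had 0.03 (adjusted p = 0.868).

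The folate genes had 0 higher, also at an unadjusted p under 0.05 in limma, and 3 lower of 15 tested. This is 20.0%, where 16.1% of all named genes were called lower. *Ggh*, which trims the glutamate tail of folates, had log2 ratios of -0.59, -0.89 and -0.75 in replicates 1, 2 and 3 and 0.29 in the dye swap, with a log2 fold change of -0.60 (SE 0.16, adjusted p = 0.0690). *Mthfd2l*, a mitochondrial relative of *Mthfd1*, had -0.20 (adjusted p = 0.147). Both lay above 0 in the dye swap.

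Of the serine and glycine genes, 2 of 6 were higher. *Gldc*, the decarboxylase of the glycine cleavage system, had the largest change of the 65. Its log2 ratios were 1.69, 1.27 and 1.27 in replicates 1, 2 and 3 and 0.34 in the dye swap, all above 0. The log2 fold change was 1.19 (SE 0.10, adjusted p = 0.0324) and 0.88 (adjusted p = 0.0472) with the dye fitted. *Psph*, which completes serine synthesis, had 0.54, 0.39, 0.48 and 0.09 on the 4 arrays and a log2 fold change of 0.39 (SE 0.08, adjusted p = 0.0496).

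Below cysteine, 4 of 10 genes of cysteine and glutathione metabolism were higher. *Cdo1*, which oxidises cysteine, had log2 ratios of 1.03, 0.995 and 0.998 in replicates 1, 2 and 3 and -0.36 in the dye swap, and a log2 fold change of 0.78 (SE 0.16, adjusted p = 0.0452). *Gss* and *Gclc*, both enzymes of glutathione synthesis, had log2 differences of 0.48 (adjusted p = 0.0426) and 0.33 (adjusted p = 0.116) and lay above 0 on all 4 arrays. *Tst*, a sulfurtransferase, had 0.52 (adjusted p = 0.0931) and -0.37 in the dye swap.

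Of the 8 genes listed for the CDP routes of phospholipid synthesis, 1 was higher and 1 lower. *Etnk1*, ethanolamine kinase, opens the branch to phosphatidylethanolamine, the substrate of PEMT. It had log2 ratios of 0.76, 1.24 and 0.92 in replicates 1, 2 and 3 and -0.01 in the dye swap, with a log2 fold change of 0.85 (SE 0.17, adjusted p = 0.0458). *Cept1*, which carries out the last step of both branches, had -0.26 (adjusted p = 0.146). In polyamine synthesis and methionine salvage, which draw on S-adenosylmethionine, 3 of 9 genes were higher and 2 lower. *Srm*, *Adi1* and *Mtap* were higher by 0.41 (adjusted p = 0.110), 0.38 (adjusted p = 0.0875) and 0.33 (adjusted p = 0.0958) on the log2 scale. *Sat1*, which acetylates spermidine and spermine for breakdown, had -1.50 on replicate 1, -0.97 on replicate 2, -0.09 on replicate 3 and 0.05 in the dye swap, and a log2 fold change of -0.59 (SE 0.18, adjusted p = 0.0855).

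**Figure D4:**
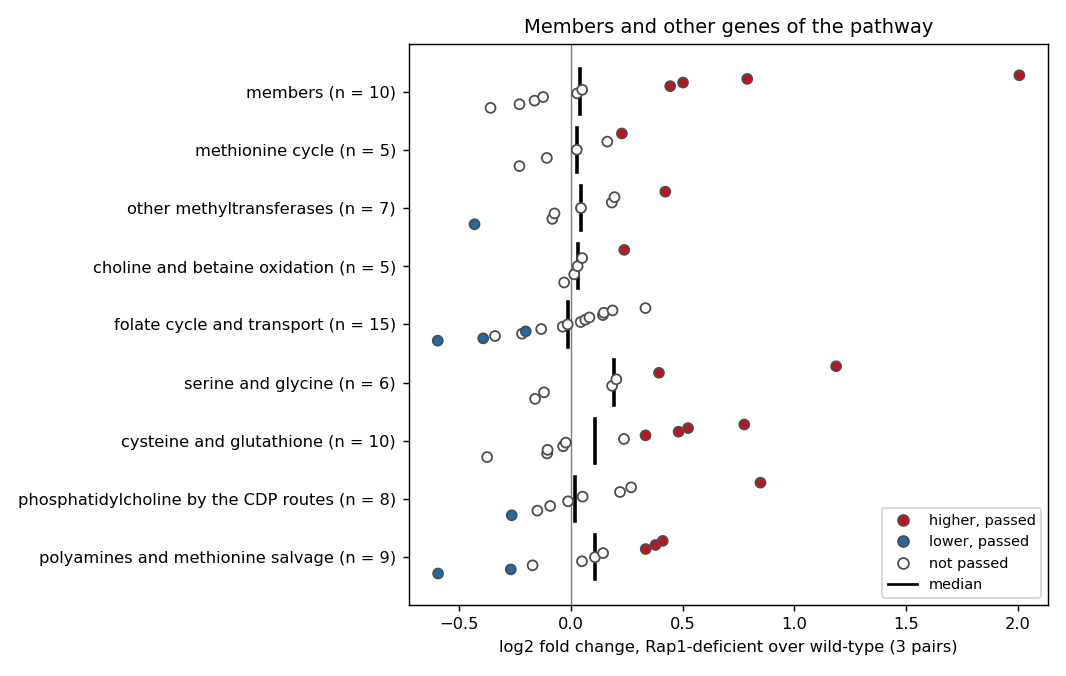
Log2 fold change over 3 pairs (x axis) of the 10 members and of the 65 tested genes of the surrounding pathways by role (rows), 1 point per gene by its brightest probe, with red for higher and blue for lower past the threshold, white for not passed and a bar at the median of each list. *Ahcy* at 2.01 and *Gldc* at 1.19 are the points farthest from 0, and the list medians lie between -0.01 and 0.19.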

How the data were processed

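Liver RNA was hybridised to 4 Agilent 2-colour arrays. The authors deposited scanned median spot and background intensities of both dyes, from Agilent Feature Extraction (10.7.3.1 in the file headers), and no mean intensities, which the design had named first. The deposited scans also hold processed signals, as intensities, and log10 ratios of Cy5 over Cy3, used to settle directions. The authors' value table holds log2 ratios, credited to limma, with the dye-swapped column already turned. How its background was corrected is not given in the sources.

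Background was removed from the median intensities by normexp with an offset of 50, and dyes were balanced within each array by loess, in limma 3.58.1 (R 4.3.3), without control spots and flagged outliers, and repeated spots were averaged. The dye-swapped array, sign turned, was averaged with replicate 1. In the fit with the dye term, all 4 arrays entered as independent, with no block for that match. Probes with at least 0.5 of their spots well above background on all 4 arrays in 1 genotype were tested with lmFit and eBayes on 3 pairs, and Benjamini-Hochberg adjustment covered all 27513 probes (FDR under 0.15, the study's threshold). The labels call the replicates biological, and precision is limited by how few arrays there are. Channel values were taken after loess and Aquantile. Gene names were found from probe accessions in a RefSeq table of GRCm38.p6, which named 26056 of 55681 probes (46.8%), and a gene is represented by its tested probe of highest mean intensity. Promoters come from RefSeq.

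All 10 members are named with every probe. Of other pathway genes, up to 4 past the threshold with the smallest p in each role list are named, and some that missed it were added after their values were seen, as were further genes given for their role. Some genes of the lists are counted but not reported here by name. The members and lists were chosen with earlier results of these data known. Alternatives were other background corrections and normalizations, filters, a dye term, the swap as a replicate or left out, each replicate left out, another probe per gene and an FDR under 0.05.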

Additional observations from a re-analysis of the deposited data

Results flagged for a closer look

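At 9 member probes of 7 genes the ratio of *Rap1*-deficient over wild-type liver differed between the arrays with *Rap1*-deficient liver in Cy5 and the array with it in Cy3, by the dye coefficient of the limma fit over 4 arrays. This coefficient is the log2 ratio of Cy5 over Cy3 at no genotype difference. It was 1.74 (adjusted p = 0.00856) and 1.68 (adjusted p = 0.0106) at *Ahcy* A_52_P176160 and A_55_P2031100, 0.77 (adjusted p = 0.0118) and 0.29 (adjusted p = 0.0925) at *Shmt1* A_55_P2186584 and A_52_P673499, and 0.51 (adjusted p = 0.0189) at *Pemt* A_55_P1970846. *Bhmt* A_55_P2103963 had 0.74 (adjusted p = 0.0899) and *Mat1a* 0.27 (adjusted p = 0.142). It was below 0 at *Bhmt2*, with -0.30 (adjusted p = 0.114), and at *Cth* A_51_P431737, with -0.37 (adjusted p = 0.121). Only 1 array carries *Rap1*-deficient liver in Cy3, and the dye and that array cannot be told apart.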

How the results depend on the processing

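The members that rose, *Ahcy*, *Bhmt*, *Shmt1* and *Mat1a*, stayed above 0 at each probe under all 12 alternatives that refit the data, and passed in 10 of 12 at both *Ahcy* probes, in 10, 9 and 7 at the *Bhmt* probes and in 9 at *Mat1a* and at both *Shmt1* probes. The other filters on dim probes change only which probes are tested, so the fold changes there are those of the main fit and could not turn. Of 204 values of single probes under the 12 alternatives, these filters included, 159 kept their direction and side of the threshold, 23 fell short of it, 11 newly passed and 11 turned. With the dye term, 1844 of all probes, 3 member probes, 1 member gene and 3 other pathway genes were called. Counted as a replicate of its own, the dye swap gave counts of 83, 0, 0 and 0 (unadjusted p under 0.05 by limma: 5578 probes, 8 member probes, 11 pathway genes). Without the dye swap 14496 probes and 32 pathway genes were called, and at an adjusted p under 0.05, 2495 and 6. Leaving out each replicate gave 7 to 12596 probes, 0 to 12 member probes, 0 to 6 member genes and 0 to 24 pathway genes. The counts were lowest without replicate 2 (unadjusted: 3904, 8 and 8 pathway genes). They were highest without replicate 1, which left out the dye swap too, so that only arrays with *Rap1*-deficient liver in Cy5 remained. In these fits only 2 pairs remain. The median of the members ranged from -0.038 to 0.10 when a replicate was left out, the negative value without replicate 2. It was 0.22 with median centring in place of loess, which moved the median of all probes from 0.03 to 0.17 (the members then lay 0.05 above it), and -0.011 in the value table, which is 0.02 above all probes there. *Gnmt* read 0.055 and *Cbs* 0.089 with median centring. *Pemt* A_55_P1967295 read -0.032 in the value table, -0.11 with the dye term, -0.035 with the swap as a replicate of its own and -0.11 to 0.088 when a replicate was left out. *Pemt* A_55_P1970860 read -0.026, -0.10, -0.014 and -0.097 to 0.11 in that order, and A_55_P1970846 read -0.053 with the dye term. The cause was not tested. Of all called probes 60.3% were higher, 87.7% with median centring, 49.3% with processed signals and 45.3% in the value table. Slide or scan as a block was not run, since the 4 arrays lie on 1 slide and 1 scan. The log ratio of an array is itself a difference within a pair of livers. No paired analysis was possible because, beyond that, the arrays of the dye orientations share only replicate number 1. All member probes were well above background.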

Other observations

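Some markers of fat, blood and macrophages, chosen after their values were seen, had ratios that spread widely over the arrays. *Cfd*, adipsin, had log2 ratios of 2.35, 0.40 and -1.12 in replicates 1, 2 and 3 and 2.28 in the dye swap. The red cell genes *Slc4a1* and *Alas2* had 0.68, -0.39, -0.15 and 0.67, and 1.03, 0.002, 0.09 and 0.61, in the same order. *Marco*, a macrophage receptor, had -0.98, -0.001, 2.71 and -0.60. In all 4 genes the dye swap had the sign of replicate 1, which did not hold for *Alb*. None of these 4 genes passed the test.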
